A study of Rattus norvegicus with 44 samples.

Results

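The nuclear genes that encode subunits of the mitochondrial oxidative phosphorylation complexes were followed in cultured rat ovaries. Probe sets with a single gene symbol starting with Nduf (assembly factors named Ndufaf left out), Uqcr, Atp5 or Cox4 to Cox8 were taken, with the brightest probe set for each gene. This gave 73 genes on 84 probe sets, of 27342 probe sets on the array: 34 assigned by name to complex I, 7 to complex III, 16 to complex IV and 16 to complex V. Of the 73 genes, 71 are protein coding and 2 are annotated as pseudogenes (Cox6c-ps1 and Ndufs6-ps1). Names placed Ndufa4 in complex I although it is known as a partner of complex IV, and also brought in Atp5if1, the inhibitor of ATP synthase, and Cox7a2l, a factor of respiratory supercomplexes. Cox6b1, Cox7a1 and Ndufa4l2 were not named by the annotation used and were not analysed here. The same holds for the subunits encoded in mitochondrial DNA.

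Whole ovaries of 4-day-old female Sprague-Dawley rats, in which most follicles are primordial, were kept in organ culture for 2 days, untreated or exposed to 50 ng/ml of a growth factor. In the main set of 38 arrays, 8 growth factors had 3 samples each: AMH (human), BMP4 (human), FGF2 (rat), FGF7 (human), GDNF (rat), KITLG (mouse), LIF (rat) and PDGFab (rat), beside 14 untreated controls that all 8 comparisons share. The study's text gives 2 samples for GDNF where the labels hold 3, and all 3 labelled GDNF were used. A second set of 6 arrays, preprocessed apart, held 3 samples with CTGF and 3 controls of its own. Each sample pooled 2 or 3 ovaries of 1 culture well, from different pups of 1 litter, so that p-values measure the spread between wells. On any day controls were cultured beside a few of the factors, and which arrays share a day was not given in the labels used here. Factor and culture day therefore cannot be told apart, in the direct comparisons of factors in particular. The array medians of the main set lay between 5.93 and 6.01 on the log2 scale.

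Oxidative phosphorylation moves electrons from NADH and succinate through complexes I, II, III and IV to oxygen, and complex V, the ATP synthase, uses the proton gradient this builds to make ATP. Complex I joins a catalytic core, shared with bacteria, to many supernumerary subunits that assemble and stabilise it. Some core subunits are made inside the mitochondrion and the rest come from nuclear genes such as those followed here. In the ovary the oocyte holds many mitochondria and depends on them for its ATP, while the somatic cells around it also use glycolysis. In RNA from whole ovaries, fewer cells of a type and less RNA per cell cannot be told apart.

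The subunits of all 4 complexes had their lowest group means in the ovaries cultured with GDNF. The mean log2 level over the 73 subunits was 8.50, 8.55 and 8.55 in the 3 GDNF samples. In the 21 samples of the other 7 growth factors it ran from 8.73 (AMH sample 3) to 9.11 (KITLG sample 1), with no overlap with GDNF. The 14 controls spread over both ranges, from 8.49 (control 12) over a median of 8.75 to 9.10 (control 10). Only control 12 lay below the GDNF samples, and control 9 (8.58) was the next above them. In the other groups the mean was 8.86 ± 0.11 with AMH, 8.82 ± 0.04 with BMP4, 8.93 ± 0.14 with FGF2, 8.80 ± 0.04 with FGF7, 8.94 ± 0.16 with KITLG, 8.92 ± 0.14 with LIF and 8.91 ± 0.07 with PDGFab (SD, n = 3 each), against 8.53 ± 0.03 with GDNF and 8.78 ± 0.17 (SD, n = 14) in the controls.

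Untreated controls 12 to 14 stood apart from the other 11 controls for part of the subunits, at levels near those of GDNF. For 12 of the 73 subunits all 3 lay below the other 11 controls, as against 2.15% of all probe sets, and for these 12 the GDNF arrays did so as well. The GDNF arrays lay below those 11 controls for 18 subunits, as against 2.88% of all probe sets. Ndufs8 stood at 7.37, 7.60 and 7.55 in controls 12 to 14 and at 7.68, 7.54 and 7.56 with GDNF, with the other controls at 7.72 or higher. Uqcrh stood at 9.14, 8.96 and 8.92 in these controls and at 9.01, 8.94 and 9.14 with GDNF, with the other controls at 9.23 or higher. The median difference of GDNF was -0.07 from controls 12 to 14 (51 of 73 subunits lower) and -0.27 from the other 11 (62 lower), and controls 12 to 14 differed from the other 11 by a median of -0.16 (57 lower). These 3 controls were set apart after their values were seen, so no test of them is given. Whether they shared a culture day with GDNF was not given in the labels used here.

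**Figure D1:**
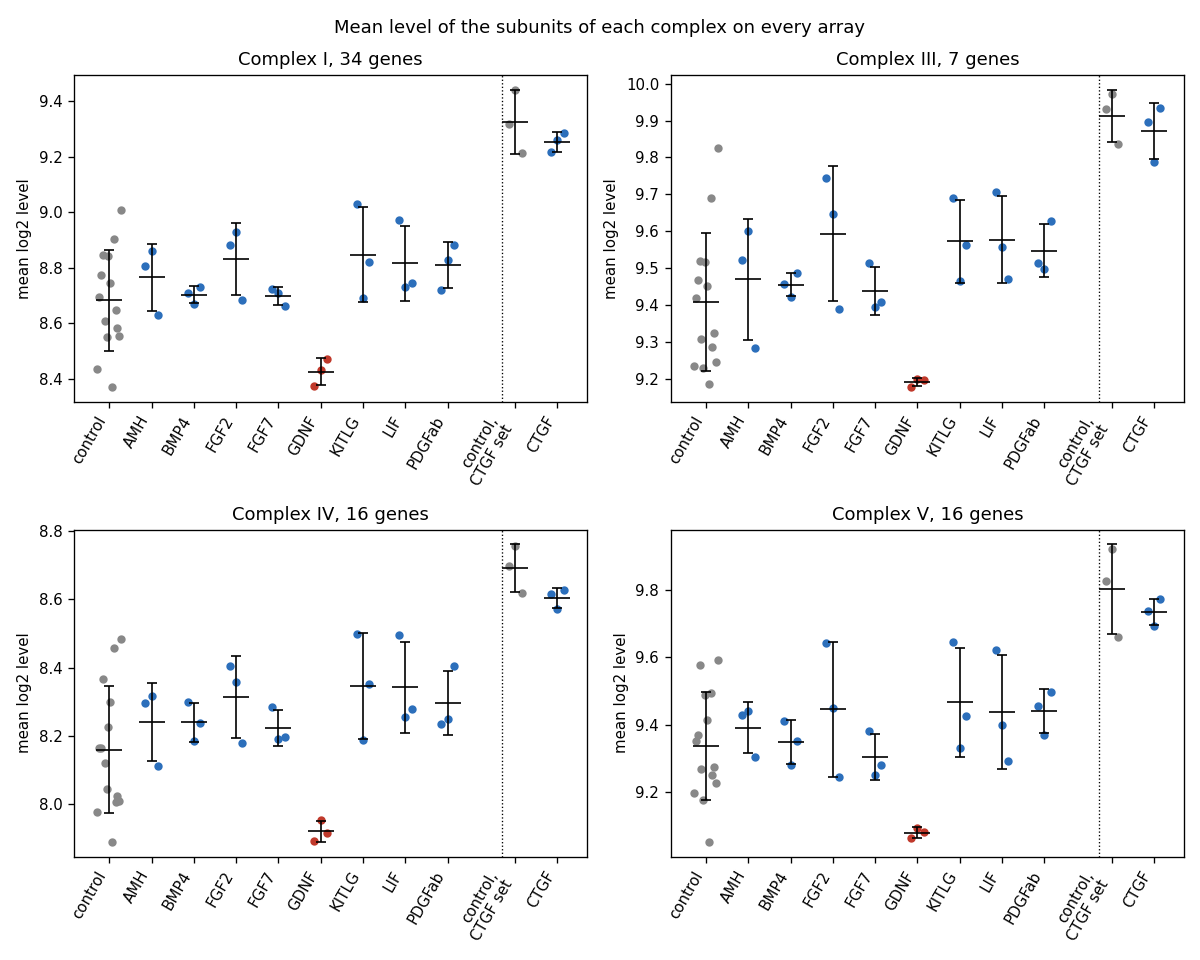
Mean log2 level of the subunits of each complex on every array, with 1 point per array, bars for the mean and SD of a group, and the separately processed CTGF set right of the dotted line. The 3 GDNF samples (red) sit at the bottom in every panel, at 8.37 to 8.47 for complex I, beside the lowest of the 14 controls (grey).

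Subunits of the 4 complexes tended to move together from array to array. Over all 2628 pairs of subunits the median Pearson r across the 38 arrays was 0.345, and it was nearly the same within a complex (0.347) as between complexes (0.344). Of the pairs, 78.3% had r above 0. These correlations describe arrays that share treatments and preprocessing. Other genes were not measured in the same way, so the correlations are not shown to be particular to the subunits. Among the 14 controls alone the median was 0.442, so the shared movement was present without any growth factor. The subunits varied somewhat more between controls than the array as a whole, with a median SD of 0.234 against 0.197 for all probe sets. Ndufb8, Ndufa11 and Uqcrq, small accessory subunits of complexes I and III, followed the others most closely (median r of 0.60, 0.59 and 0.59). Ndufs1, a core iron-sulphur subunit of complex I, the testis isoform Cox8c (a dim probe set, with a mean level of 4.01 against an array-wide median of 5.98) and the catalytic beta subunit Atp5f1b followed them least, with median r of -0.25, -0.23 and -0.17. Ndufa3 had the widest range in the controls, 2.25 log2 units from 6.18 to 8.43, and Cox6b2, Ndufb6 and Uqcrh also ranged over more than 1.7 units. Atp5f1c, the gamma subunit of the ATP synthase rotor, ranged over only 0.30.

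With GDNF, 63 of the 73 subunits had a lower mean than in the 14 controls and 10 a higher one, with a median log2 difference of -0.23 against 0.04 over all probe sets. The median was -0.24 in complex I (31 of 34 lower), -0.19 in complex III (5 of 7 lower), -0.21 in complex IV (12 of 16 lower) and -0.22 in complex V (15 of 16 lower). By limma with Benjamini-Hochberg adjustment over all probe sets, 1 subunit fell, Ndufb11, and none rose, where 1.89% of all probe sets were called in either direction. By looser criteria, which ask for an unadjusted limma p up to 0.05, a ratio from 1.2 upward or from 0.83 downward and a gap of 10 or more on the linear scale, 25 subunits were lower and 0 higher. Of all probe sets, 4.03% were lower and 1.96% higher by these criteria. At an unadjusted p under 0.05, 34 subunits were lower and 1 higher, the pseudogene Cox6c-ps1, a dim probe set with a mean level of 4.51. Of all 27342 probe sets, 1556 were lower and 3114 higher at that limit. The count of adjusted calls turned on the controls and on single samples. It was 20 without control 12 (2314 of all probe sets), 7 without control 14, 3 without control 13, 2 without control 2 or control 9, and 0 without any 1 of the 3 GDNF samples or of controls 1, 3 to 8, 10 and 11. Without controls 12 to 14, 27 subunits were called, all lower, beside 3151 of all 27342 probe sets, and the median was -0.27. These 3 controls were set apart after they were seen to lie near GDNF, so leaving them out favours a larger count. It is given as a description only.

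The GDNF comparison also varied with level over the whole array. In 4 equal bins of mean level, from low to high, the probe sets had median differences of 0.10, 0.08, -0.04 and -0.04, and 56 of the subunits lie in the top bin. The other 4768 probe sets between the quartiles of the subunits' levels (8.20 to 9.94) had a median of -0.04, and 58.8% of them were lower. After cyclic loess, which removes such level-dependent shifts, the subunit median was -0.20 with 62 of 73 lower, and 0 subunits were called. The cause of the subunit shift was not tested.

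**Figure D2:**
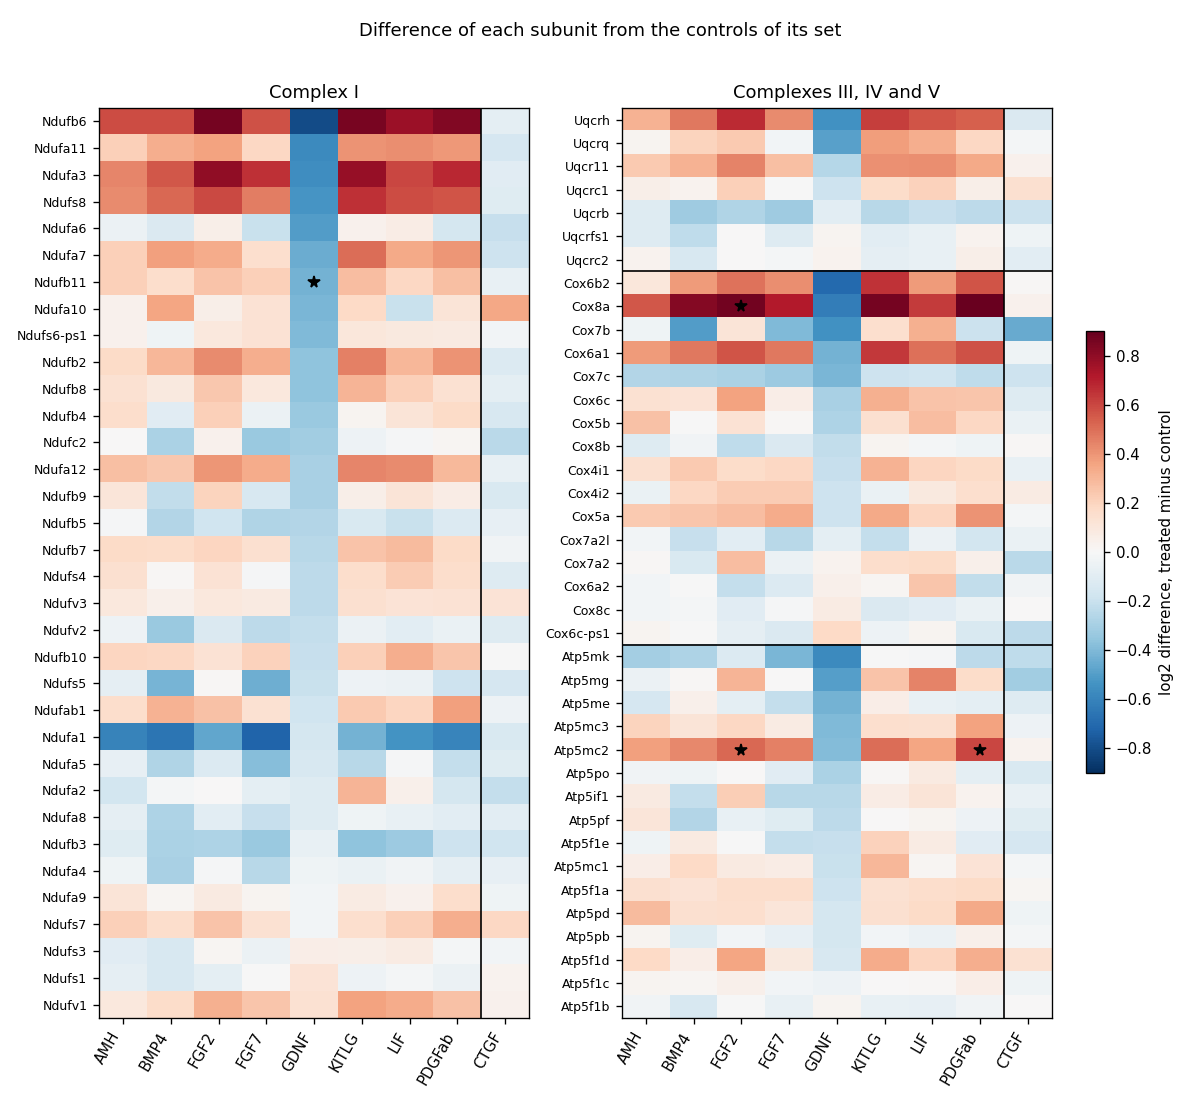
Log2 difference, treated minus control, of each of the 73 subunits (rows, by complex and within it by the GDNF difference) in the 9 comparisons (columns), with a star where the adjusted p was under 0.05. The GDNF column is blue in 63 rows, and Ndufb6, Ndufa3, Ndufs8, Uqcrh, Cox8a and Cox6b2 are red with each of the other 7 factors of that set.

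Set directly against the other growth factors, with no control in the comparison, the GDNF samples were lower for many subunits. All 3 GDNF arrays lay below all 21 arrays of the other factors for 24 of the 73 subunits, as against 2.86% of all probe sets. They lay above all 21 for 0 subunits, as against 3.93% of all probe sets. The 24 comprised 14 subunits of complex I, 2 of complex III, 4 of complex IV and 4 of complex V. In the direct limma comparisons, each adjusted over all probe sets, GDNF was lower than AMH for 5 subunits (0.753% of all probe sets called in either direction), than BMP4 for 10 (2.4%), than FGF2 for 18 (3.13%), than FGF7 for 9 (1.55%), than KITLG for 21 (2.5%), than LIF for 17 (3.79%) and than PDGFab for 17 (2.53%). GDNF was higher for 0 subunits in each of the 7. These 7 comparisons share the 3 GDNF samples. In the other 21 of the 28 pairs of growth factors, limma called 0 subunits, where it called between 0 and 51 of all probe sets. The median difference over the subunits in the pairs with GDNF ran from 0.21 lower than with FGF7 to 0.38 lower than with KITLG.

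**Figure D3:**
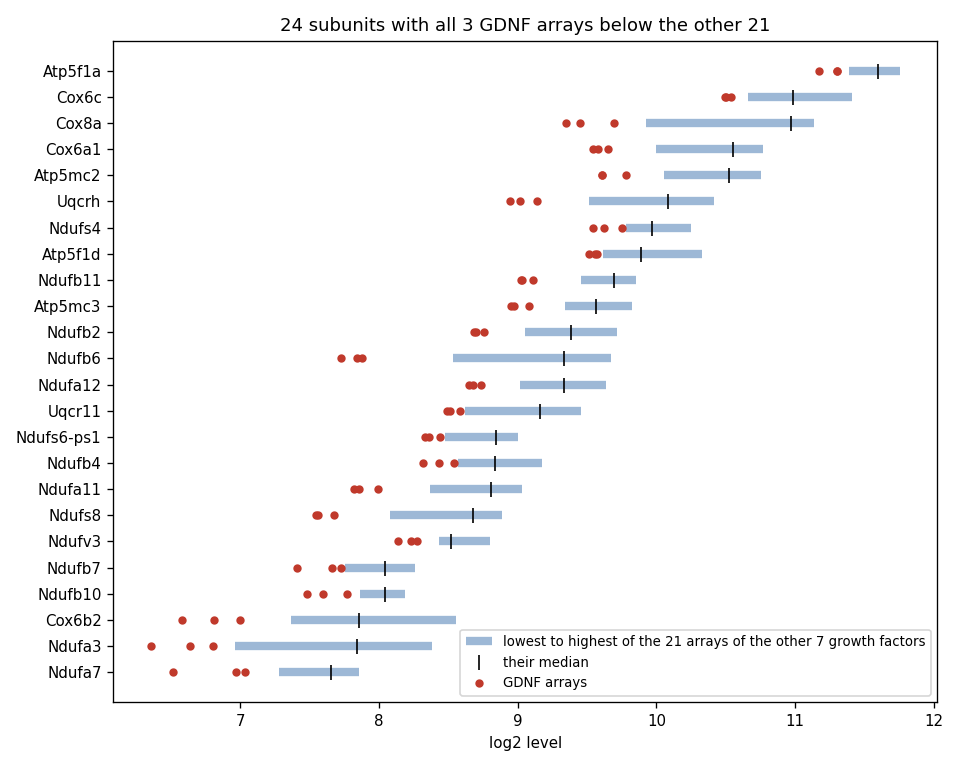
The 24 subunits for which all 3 GDNF arrays (red points) lay below all 21 arrays of the other 7 growth factors (bars from lowest to highest, with the median as a tick), on the log2 scale. The gap is widest for Ndufb6, where GDNF reached 7.88 at most and the other arrays 8.53 at least.

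Over these 7 comparisons 24 subunits were called at least once, 13 of complex I, 3 of complex III, 5 of complex IV and 3 of complex V, and 49 in none. Called against all 7 factors were Ndufb6 and Ndufb11, both accessory subunits in the membrane arm of complex I, Cox8a, the common form of the smallest subunit of cytochrome c oxidase, and Atp5mc2, 1 of 3 genes for the same mature c subunit of the ATP synthase rotor ring. Called against 5 or 6 were 8 others. They were Ndufs8, a core iron-sulphur subunit of complex I, Cox6a1, Uqcrh, the hinge protein of complex III, Ndufa7, Ndufa11, Ndufa12, Atp5f1a, the alpha subunit of the ATP synthase head, and Atp5mc3, another c subunit gene. Ndufs8 was lower with GDNF by 0.99 to 1.19 on the log2 scale in its 6 comparisons, Uqcrh by 1.02 to 1.22 and Atp5f1a by 0.33 to 0.36 in 5 each. Among the 12 called against 1 to 4 factors, Ndufa3 differed most, lower by 1.34 and 1.36 against 2 factors, followed by Cox6b2, the testis form of a complex IV subunit, lower by 1.08 to 1.35 against 4.

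These counts also rested on single samples. Against AMH, BMP4, FGF2, FGF7, KITLG, LIF and PDGFab in that order, without GDNF sample 1 they were 0, 1, 4, 0, 3, 1 and 4, without sample 2 they were 0, 2, 6, 0, 7, 2 and 7, and without sample 3 they were 1, 2, 11, 5, 10, 10 and 13. Leaving out samples 1, 2 and 3 of the other factor in turn gave 0, 0 and 9 for AMH, 1, 0 and 2 for BMP4, 4, 10 and 15 for FGF2, 0, 2 and 0 for FGF7, 0, 12 and 11 for KITLG, 0, 4 and 13 for LIF, and 7, 8 and 5 for PDGFab.

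An F-test of limma among the 8 growth factors, without the controls in the contrast, called 3 subunits, where 0.479% of all probe sets were called. They were Atp5mc2 (adjusted p = 0.021), Cox8a (adjusted p = 0.027) and Ndufb6 (adjusted p = 0.0327). The count was 0 without any 1 of the 3 GDNF samples.

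Ndufb6 had the largest difference of any subunit with GDNF. Its log2 levels were 7.88, 7.84 and 7.72 in the GDNF samples and ran from 7.81 over a median of 8.57 to 9.57 in the controls and from 8.53 over 9.34 to 9.68 in the 21 samples of the other factors. The GDNF samples lay beside controls 12 to 14 (7.81, 8.12 and 7.96), below the other 11 controls and apart from all other treated samples. Against the controls the difference was -0.81 ± 0.25 (SE, adjusted p = 0.0763, exact two-sided permutation p = 0.0206 over 680 splits), 1.75-fold lower and not past the threshold. Directly it was lower by 1.38 (against FGF7) to 1.67 (against FGF2), with adjusted p from 0.00448 to 0.0347.

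Ndufb11 was the subunit past the threshold against the controls. It stood at 9.03, 9.03 and 9.11 with GDNF, at 8.95 to 9.78 with a median of 9.51 in the controls, and at 9.46 to 9.85 with the other factors. The GDNF values overlapped controls 12 to 14 (8.95, 9.07 and 9.22) and lay below the other 11, which began at 9.48. The difference was -0.42 ± 0.11 (SE, adjusted p = 0.0468, exact two-sided permutation p = 0.0118), 1.34-fold lower. The call was lost without any 1 of the GDNF samples (adjusted p = 0.229, 0.187 and 0.108) and without any 1 of controls 1 and 3 to 11 (0.051 to 0.0664), while the difference stayed between -0.46 and -0.40.

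Cox8a had log2 levels of 9.45, 9.35 and 9.70 with GDNF, 10.97, 11.09 and 10.91 with FGF2, and lay between 10.99 and 11.04 in the 3 PDGFab samples. The controls ran from 9.59 over a median of 9.97 to 10.98. GDNF lay at their lower end and FGF2 and PDGFab at their upper end, with all 3 PDGFab samples above every control. Cox8a rose with FGF2 by 0.87 ± 0.22 (SE, adjusted p = 0.0431, exact two-sided permutation p = 0.00441), 1.83-fold. With PDGFab the difference was 0.89 (adjusted p = 0.0651, exact two-sided permutation p = 0.00147, the smallest that 3 against 14 can give). With GDNF it was -0.62 (adjusted p = 0.129), and directly GDNF was lower than each other factor by 1.18 (AMH) to 1.51 (PDGFab).

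Atp5mc2 had log2 levels of 9.61, 9.61 and 9.78 with GDNF, 10.52, 10.70 and 10.48 with FGF2 and 10.65, 10.64 and 10.68 with PDGFab, against 9.62 to 10.55 with a median of 10.03 in the controls. All 3 PDGFab samples lay above every control. Atp5mc2 rose with FGF2 by 0.51 ± 0.13 (SE, adjusted p = 0.0463) and with PDGFab by 0.60 ± 0.13 (SE, adjusted p = 0.0347), 1.43-fold and 1.52-fold. A second probe set for the gene gave 0.67 with FGF2 (adjusted p = 0.00513) and 0.71 with PDGFab (adjusted p = 0.0101). With GDNF the differences were -0.39 (adjusted p = 0.112) and -0.24 (adjusted p = 0.329) on the 2 probe sets.

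The FGF2 and PDGFab calls were sensitive to single samples as well. Cox8a and Atp5mc2 each lost the call with FGF2 without any 1 of the 3 FGF2 samples or of controls 3 to 8 and 12 to 14 (adjusted p from 0.0518 to 0.226 and from 0.0525 to 0.218). Atp5mc2 lost the call with PDGFab without any 1 of the PDGFab samples or control 7 (0.0531 to 0.212). In each case the difference kept its sign. The number of subunits called with FGF2 was 5 without control 10, and with PDGFab it was 5 without control 2, 3 without control 10 and 2 without control 11. Without FGF2 sample 3, or without control 14, 1 subunit other than these was called with FGF2.

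**Figure D4:**
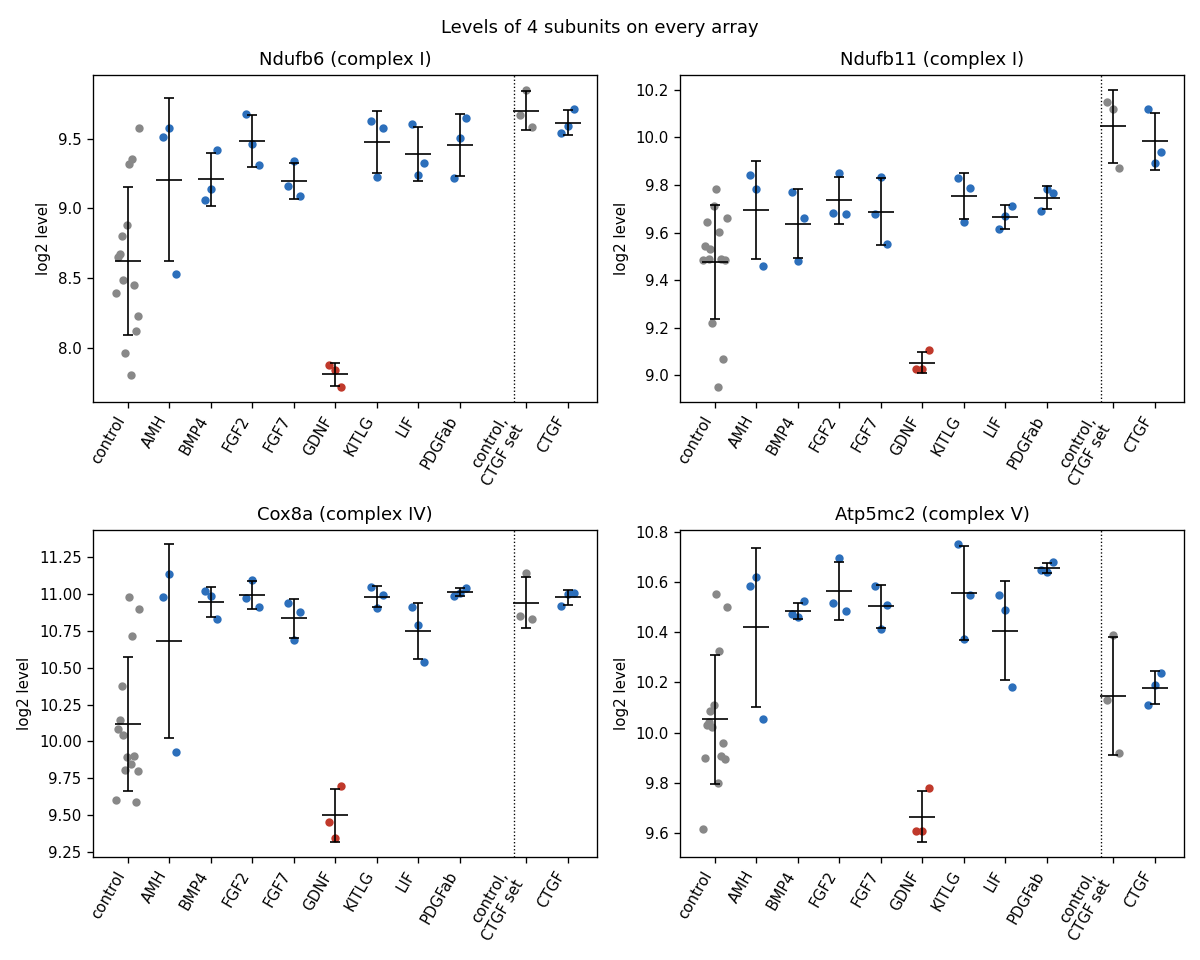
Log2 levels of Ndufb6, Ndufb11, Cox8a and Atp5mc2 on every array, with 1 point per array and bars for the mean and SD of each group, the CTGF set right of the dotted line. In all 4 panels the GDNF samples (red) lie below all samples of the other 7 factors of the same set and within or just below the range of the 14 controls (grey).

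The promoters of these 4 genes are shown because the genes were called lower with GDNF against all 7 other factors. They were taken from RefSeq on GRCr8 as 250 bases before to 50 after the annotated start, 5′ to 3′ on the gene's strand. Capitals mark exact matches to 3 short motifs on either strand, those of NRF1 (GCATGCGC), of ETS factors such as GABP (CCGGAAG) and of YY1 (AAGATGGC), regulators known from nuclear genes for mitochondrial proteins.
Ndufb6 (chr5:60206103-60206402, minus strand): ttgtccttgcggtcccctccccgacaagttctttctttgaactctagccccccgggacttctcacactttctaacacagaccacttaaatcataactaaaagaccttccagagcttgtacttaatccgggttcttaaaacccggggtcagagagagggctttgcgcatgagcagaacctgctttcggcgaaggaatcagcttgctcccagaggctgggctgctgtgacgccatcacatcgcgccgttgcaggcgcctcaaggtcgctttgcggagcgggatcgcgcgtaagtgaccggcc
Ndufb11 (chrX:4126067-4126366, plus strand): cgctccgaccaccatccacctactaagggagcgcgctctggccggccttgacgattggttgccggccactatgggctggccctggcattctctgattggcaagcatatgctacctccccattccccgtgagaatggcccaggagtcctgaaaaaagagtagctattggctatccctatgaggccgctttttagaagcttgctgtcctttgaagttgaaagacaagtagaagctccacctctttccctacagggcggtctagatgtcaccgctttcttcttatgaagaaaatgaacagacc
Cox8a (chr1:213833574-213833873, minus strand): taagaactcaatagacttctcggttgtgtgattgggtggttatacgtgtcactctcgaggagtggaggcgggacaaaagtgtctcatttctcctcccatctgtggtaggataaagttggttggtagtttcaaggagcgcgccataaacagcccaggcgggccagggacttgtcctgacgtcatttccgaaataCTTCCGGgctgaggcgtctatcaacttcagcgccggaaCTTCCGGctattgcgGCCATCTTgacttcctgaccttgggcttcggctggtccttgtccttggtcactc
Atp5mc2 (chr7:135678169-135678468, minus strand): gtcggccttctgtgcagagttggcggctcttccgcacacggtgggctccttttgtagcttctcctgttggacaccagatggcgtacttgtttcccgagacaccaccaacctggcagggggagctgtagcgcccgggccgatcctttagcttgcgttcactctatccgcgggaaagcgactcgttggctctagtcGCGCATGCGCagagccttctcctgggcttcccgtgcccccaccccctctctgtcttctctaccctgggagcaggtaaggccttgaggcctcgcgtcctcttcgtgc
Cox8a held 2 ETS matches and 1 YY1 match, Atp5mc2 held 2 overlapping NRF1 matches that read the same on both strands, and the windows of Ndufb6 and Ndufb11 held no match to these letters. The Atp5mc2 window lies inside the annotated gene, which reaches to 135680839 on chromosome 7, so it surrounds an internal start. Of the 71 protein coding subunits, 63 had a promoter in the table. NRF1 letters were in 8 of them (12.7%, against 3.23% of 19005 promoters of protein coding genes), ETS letters in 18 (28.6% against 11.2%) and YY1 letters in 12 (19.0% against 3.92%). Sp1 letters (GGGCGG) were in 27 (42.9% against 43.1%) and ERR letters (TCAAGGTCA) in 1, that of Atp5mc3. A match describes the letters and is not shown to be a bound site.

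With FGF2, 52 of the 73 subunits had a higher mean than the controls (median 0.13 against -0.01 over all probe sets). Cox8a and Atp5mc2 were the 2 that rose and 0 fell, where 0.94% of all probe sets were called. By the looser criteria 15 were higher (4.43% of all) and 3 lower (2.36%). The largest differences after Cox8a were those of Ndufb6 (0.86, adjusted p = 0.0831) and Ndufa3 (0.80, adjusted p = 0.214), and the lowest those of Ndufa1 (-0.47), Cox7c (-0.29) and Ndufb3 (-0.28). With PDGFab 47 were higher (median 0.12 against -0.01), and Atp5mc2 was the 1 subunit called, where 0.234% of all probe sets were. By the looser criteria 19 were higher (3.64% of all) and 1 lower (1.69%). Cox8a, Ndufb6 (0.83) and Ndufa3 (0.68) were again the highest and Ndufa1 (-0.60), Uqcrb (-0.24) and Atp5mk (-0.23) the lowest.

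KITLG and LIF had subunit medians of the same size with no adjusted call. With KITLG 52 were higher (median 0.14 against 0.00) and 0 were called (0.0439% of all probe sets). At an unadjusted p under 0.05 by limma, 23 were higher and 4 lower, beside 1189 and 1178 of all 27342 probe sets. By the looser criteria 18 were higher (2.17% of all) and 2 lower (2.28%). With LIF 51 were higher (median 0.12 against -0.03) and 0 were called (0.267%). At an unadjusted p under 0.05 by limma, 15 were higher and 4 lower, beside 1168 and 815 of all probe sets. By the looser criteria 14 were higher (2.85%) and 2 lower (0.969%). Cox8a, Ndufb6 and Ndufa3 were the 3 highest with each, at 0.86, 0.85 and 0.79 with KITLG and 0.63, 0.77 and 0.60 with LIF. Ndufa1, Ndufb3 and Uqcrb were the 3 lowest with each, at -0.43, -0.36 and -0.25 with KITLG and -0.54, -0.33 and -0.20 with LIF. These medians rested in part on single samples. The KITLG median was 0.03 without KITLG sample 1, the LIF median 0.04 without LIF sample 1, the FGF2 median 0.07 without FGF2 sample 1 and 0.06 without sample 2, and the PDGFab median 0.04 without PDGFab sample 3. Without control 2, 1 subunit was called with KITLG.

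With AMH 46 were higher (median 0.05 against -0.01) and limma called 0, where 0% of all probe sets were called. At an unadjusted p under 0.05, 9 were higher and 2 lower, beside 788 and 600 of all 27342 probe sets. By the looser criteria 6 were higher (1.42% of all) and 2 lower (0.731%). Ndufb6 (0.58), Cox8a (0.56) and Ndufa3 (0.44) were highest, and Ndufa1 (-0.60), Atp5mk (-0.31) and Cox7c (-0.27) lowest. AMH sample 3 lay apart from the other 2 in these genes. Its Cox8a level was 9.93, against 10.98 and 11.13. The AMH median was 0.12 without that sample.

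With BMP4 and FGF7 the subunits split. With BMP4 39 were higher and 34 lower (median 0.02 against 0.00), and limma called 0 (0.274% of all probe sets). At an unadjusted p under 0.05, 12 were higher and 12 lower, beside 1218 and 1234 of all 27342 probe sets. By the looser criteria 10 were higher (2.11%) and 10 lower (2.37%). With FGF7 35 were higher and 38 lower (median -0.01 against -0.01), and limma called 0 (0.0805%). At an unadjusted p under 0.05, 12 were higher and 13 lower, beside 984 and 1086 of all probe sets. By the looser criteria 9 were higher (2.04%) and 8 lower (2.12%). The highest with BMP4 were Cox8a (0.82), Ndufb6 (0.59) and Ndufa3 (0.56) and the lowest Ndufa1 (-0.66), Cox7b (-0.50) and Ndufs5 (-0.42). With FGF7 they were Cox8a (0.71), Ndufa3 (0.66) and Ndufb6 (0.57), and Ndufa1 (-0.72), Ndufs5 (-0.44) and Atp5mk (-0.41). Without control 2, 2 subunits were called with BMP4 and 1 with FGF7, and without control 10, 1 with BMP4. The methods' t-test called 0 subunits after Benjamini-Hochberg adjustment in each of the 9 comparisons, where it called between 0 and 19 of all probe sets.

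Ndufa1, a small accessory subunit of complex I, had the lowest difference of all subunits with each factor of the main set but GDNF. Its 3 samples were 7.61, 7.55 and 7.48 with FGF7 and 7.59, 7.61 and 7.61 with BMP4, against 7.30 over a median of 8.27 to 9.02 in the controls. Both factors lay in the lower part of the control range. With GDNF it stood at 8.11, 8.12 and 8.09, below 11 of the 14 controls and above 18 of the 21 samples of the other factors. The difference from the controls was negative with all 8 factors, from -0.72 (FGF7, adjusted p = 0.155) to -0.16 (GDNF, adjusted p = 0.723), and none passed the threshold.

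By role, the GDNF difference was not even over complex I. Its 26 supernumerary subunits had lower means in all 26 cases, with a median of -0.28. The 6 measured core subunits were 3 lower and 3 higher with a median of 0.02, from -0.53 (Ndufs8) to 0.14 (Ndufv1, which binds NADH), and Ndufs1 was at 0.12. In complex III the small subunits Uqcrh (-0.55), Uqcrq (-0.49) and Uqcr11 (-0.26) were lowest, while the Rieske protein Uqcrfs1 (0.02) and the core protein Uqcrc2 (0.03) were near 0. The other core protein Uqcrc1 (-0.19) and the small subunit Uqcrb (-0.09) lay between them. In complex V the 3 genes of the c-ring (-0.40 to -0.20) and the 7 of the peripheral stalk and membrane part (-0.57 to -0.16) were all lower, with medians of -0.39 and -0.28. The 5 genes of the F1 head had a median of -0.14, from -0.21 (Atp5f1e) to 0.02 (Atp5f1b). The difference between these roles was not tested.

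The isoform genes of complex IV were grouped by tissue form. Of the 10 genes of common forms, Ndufa4 included, 9 were lower with GDNF (median -0.29). Of the 5 tissue forms 3 were lower, a count that rests mostly on dim probe sets and is not set against that of the common forms. Cox4i1, the general form of the subunit IV gene, had a mean of 9.96 ± 0.12 (SD, n = 3) with GDNF, 10.17 ± 0.18 (SD, n = 14) in the controls and 10.31 to 10.48 with the other factors. Cox4i2, its low-oxygen and lung form, had means between 5.76 (GDNF) and 6.18 (FGF7) in the main set. Cox6a1 had a mean of 9.59 ± 0.05 (SD, n = 3) with GDNF, against 10.01 ± 0.39 (SD, n = 14) in the controls, and all 3 GDNF samples were below all samples of the other factors. The probe sets of the muscle forms Cox6a2 and Cox8b and the testis form Cox8c were dim, with mean levels of 5.19, 3.91 and 4.01 against the array-wide median of 5.98, so that their differences of 0.04, -0.22 and 0.07 are not set against those of the common forms. Cox6b2 had 7.00, 6.81 and 6.58 with GDNF and 6.27 to 8.35 in the controls, a difference of -0.70 ± 0.25 (SE, adjusted p = 0.131). Of the c subunit genes, Atp5mc3 (-0.40, adjusted p = 0.0659) and Atp5mc2 (-0.39) differed more than Atp5mc1 (-0.20). Ndufa4 was at -0.04.

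The CTGF set was processed on its own scale and its levels are not set against the other arrays. The mean over the 73 subunits was 9.26, 9.25 and 9.31 with CTGF and 9.35, 9.45 and 9.24 in its controls, with overlap. By replicate number it was lower with CTGF in samples 1 and 2 and higher in sample 3. The tests below leave this pairing out. There 57 of the 73 subunits were lower (median -0.07 against 0.00). The median was -0.01 with 43 lower without control 2 of that set and -0.13 with 60 lower without control 3. Limma called 0 of them, where 0% of all probe sets were called. At an unadjusted p under 0.05, 0 were higher and 5 lower, beside 365 and 489 of all 27342 probe sets. By the looser criteria 0 were higher (0.318% of all) and 1 lower (0.443%). That subunit was Cox7b, a small subunit of complex IV, with 8.98, 9.00 and 9.25 with CTGF and 9.44, 9.55 and 9.60 in the controls and no overlap. The difference was -0.45 ± 0.10 (SE, adjusted p = 1.00, exact two-sided permutation p = 0.1, the smallest that 3 against 3 can give). Atp5mg (-0.31) and Ndufc2 (-0.24) came next, and Ndufa10 (0.35), Ndufs7 (0.19) and Uqcrc1 (0.14) were highest. Cox8a, Atp5mc2, Ndufb6 and Ndufb11 differed by 0.04, 0.03, -0.09 and -0.06.

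Other genes of mitochondrial function were set beside the subunits in the GDNF comparison. All 4 genes of complex II were measured, with 1 lower and a median of 0.00. The 32 measured assembly factors had a median of -0.02 (18 lower), the 10 enzymes of the tricarboxylic acid cycle -0.05 (6 lower), the 6 carriers of adenine nucleotides and phosphate -0.04 (4 lower) and the 11 regulators of mitochondrial biogenesis -0.04 (9 lower). None of these was called with GDNF. Cycs, the electron carrier cytochrome c, differed by -0.05. The 71 cytosolic ribosomal proteins were lower in 66 cases with a median of -0.16 and 3 called lower, and the 70 mitochondrial ribosomal proteins in 54 cases with a median of -0.12 and 1 called lower, where 1.89% of all probe sets were called. The 39 proteasome subunits had a median of 0.00 (22 lower). The subunits of oxidative phosphorylation had the lowest median of these lists, and no difference between lists was tested.

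Markers of the ovarian cell types did not pass the threshold with GDNF. All 6 measured oocyte markers of 10 listed were higher (median 0.29, with Dppa3 at 0.36 and Zp3 at 0.02), and their summed level on the log2 scale was 12.49 to 12.73 with GDNF, 11.47 to 12.80 in the controls and 10.97 to 12.94 with the other factors. Of the 6 measured pregranulosa markers of 8 listed 5 were lower (median -0.30), with a summed level of 11.62 to 11.82, against 11.50 to 12.41 in the controls and 11.55 to 12.38 with the other factors. The ranges overlapped in each case. With FGF2 all 6 oocyte markers were lower in the mean (median -0.34). Their summed level in the 3 FGF2 samples was 10.97, 12.62 and 12.94, against a control median of 12.58, so only the lowest sample fell below that median. With KITLG all 6 pregranulosa markers were higher (median 0.23). The part of these markers in the subunit levels was not tested. Of the other lists, 5 of 6 striated muscle markers were higher with GDNF (median 0.17), as were all 3 measured erythroid markers (median 0.23) and 3 of 4 adipocyte markers (median 0.13), while all 3 measured endothelium markers were lower (median -0.17). Their summed levels with GDNF lay within the ranges of the controls, at 7.44 to 7.54 for muscle (controls 7.25 to 7.58), 9.57 to 9.85 for erythroid cells (8.56 to 9.96), 6.35 to 6.58 for adipocytes (6.20 to 6.61) and 9.05 to 9.10 for endothelium (8.99 to 9.61). The muscle and adipocyte sums are little above the array-wide median of 5.98 for 1 probe set, so most of these probe sets are dim. Dim probe sets of the whole array were also higher with GDNF, with medians of 0.10 and 0.08 in the lower bins of level. The muscle and adipocyte differences are not set apart from that shift.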

How the data were processed

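RNA of 44 samples had been hybridised to Affymetrix Rat Gene arrays. The authors used RMA in Partek software, with GC-content adjustment, on 1 set of 38 arrays and 1 of 6, and deposited the result on a log2 scale. They were used as deposited, within 1 set at a time. Symbols came from the platform annotation.

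Linear models of limma 3.58.1 with moderated variances (R 4.3.3) were fitted to all 27342 probe sets, the 8 growth factors and 14 controls together, with Benjamini-Hochberg adjustment at 0.05. The direct pairs and the F-test used the same fit. For a single gene an exact two-sided permutation test over 680 splits (3 against 14) or 20 (3 against 3) is given. The error is the SD between samples, or limma's SE for a difference, and the number of arrays limits the precision. Replicate numbers paired the samples in the CTGF set, where same-numbered deviations correlated at 0.623 to 0.842. The p-values given for that set, the permutation test included, leave the pairing out. With the replicate number as a block no call changed there.

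The members, gene lists, roles and motifs were chosen with earlier results of these data known. Named were subunits called in any comparison, the 3 highest and 3 lowest of each, isoform pairs, and the 3 that followed the other subunits most and least. Ndufa1, the role groups and the further subunits were described after their values were seen. Tables and figures used Python 3.11.15. The fit was tested on simulated data. Alternatives were other fits, weights, normalization, filters, probe set means and leaving out samples. The direct pairs under these alternatives and the removal of single controls were added after seeing the data. No array was left out.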

Additional observations from a re-analysis of the deposited data

How the results depend on the processing

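The subunit median with GDNF stayed between -0.35 and -0.20 in all alternatives. Those with FGF2, KITLG, LIF and PDGFab were positive but fell to 0.03, 0.00 (37 subunits higher and 36 lower), 0.01 and 0.03 with the replicate number as a block, and those with AMH, BMP4 and FGF7, near 0, took both signs. No called value reversed. Counts of calls moved more. The cause was not tested. In the order AMH, BMP4, FGF2, FGF7, GDNF, KITLG, LIF, PDGFab and CTGF, the methods' t-test called 2, 14, 16, 18, 23, 19, 14, 16 and 5 subunits at an unadjusted p under 0.05 and 0 each after Benjamini-Hochberg adjustment, and the looser criteria gave 8, 20, 18, 17, 25, 20, 16, 20 and 1 in both directions. With array quality weights 15 were called with BMP4, 15 with FGF7, 33 with GDNF, 12 with KITLG, 2 with LIF, 17 with PDGFab and 28 in the F-test, and 25, 30, 28, 27, 33, 31 and 36 in GDNF against AMH, BMP4, FGF2, FGF7, KITLG, LIF and PDGFab. The replicate number does not pair the samples of the main set (r of same-numbered samples -0.56 to 0.74, 3 of 24 best with their own number). With it as a replicate block 30 were called with GDNF, 2 with FGF7, 0 with FGF2 and 0 with PDGFab, and GDNF against AMH, BMP4, FGF7, LIF and PDGFab gave 20, 22, 20, 30 and 30. The calls over all probe sets are not given here for the weighted fits, the blocked fits and most fits without a sample. Larger counts in these fits are therefore not shown to be particular to the subunits. Fits of only the treated arrays and the controls gave 0 with FGF2, GDNF and PDGFab. Cyclic loess gave 0 with GDNF and PDGFab, 1 in the F-test, and 0, 5, 10 and 10 in GDNF against AMH, FGF7, LIF and PDGFab. Leaving out dim probe sets gave 0 with GDNF, 3 with PDGFab and 0 in GDNF against AMH. A mean-variance trend with robust estimation gave 2 with GDNF. Without controls 12 to 14, set apart after they were seen to lie near GDNF, there were 27 with GDNF and 0 with FGF2 and PDGFab. Leaving out 1 sample in turn gave 0 to 20 with GDNF, 0 to 5 with FGF2 and with PDGFab, 0 to 2 with BMP4, 0 to 1 with FGF7 and with KITLG and 0 to 4 in the F-test, and in GDNF against the others 0 to 9 (AMH), 0 to 2 (BMP4), 4 to 15 (FGF2), 0 to 5 (FGF7), 0 to 12 (KITLG), 0 to 13 (LIF) and 4 to 13 (PDGFab).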

Other observations

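Among the mitochondrial genes outside the 4 complexes, Slc25a4, an exchanger of ADP and ATP in the inner mitochondrial membrane, was the 1 carrier called. It fell with BMP4 by 0.48 on the log2 scale, from 11.26 ± 0.14 (SD, n = 14) in the controls to 10.78 ± 0.08 (SD, n = 3), with an adjusted p of 0.0101 by limma, where 0.274% of all probe sets were called with BMP4. The 4 genes of complex II were all lower with BMP4 (median -0.12) and none was called. Of the 39 proteasome subunits, 33 were lower with BMP4 (median -0.13, 1 called lower) and 33 with FGF7 (median -0.13, none called). Of the 71 cytosolic ribosomal proteins 50 were higher with AMH (median 0.04, none called).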
